A study of Mus musculus with 15 samples.

Results

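The livers of female mice without a functional estrogen receptor alpha (ESR1KO females, FKO) were compared with those of their wild type (WT) female counterparts (FWT) across all genes with enough counts. The comparison uses 8 of the 15 samples of the series, 5 FKO and 3 FWT livers, chosen by genotype and sex as labelled, with 1 library per mouse at 8 weeks of age. All mice belong to the strain B6N(Cg)-Esr1 tm4.2Ksk/J. ESR1KO mice are homozygous for a deletion of Esr1 exon 3 in every tissue, and FWT mice carry WT alleles. The other 7 samples are 3 WT males (MWT) and 4 ESR1KO males (MKO), which share the age, tissue and strain and enter only where named. The deletion is not restricted to hepatocytes. The study describes ESR1KO mice as infertile with raised testosterone in both sexes, so that loss of the receptor in the liver and the altered hormones of the whole animal cannot be told apart in these groups.

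ESR1 is a nuclear receptor that binds estrogens and then acts on DNA at estrogen response elements or through other transcription factors. In mouse liver, many genes for steroid and drug metabolism, for secreted carrier proteins and for sulfation differ between the sexes. This sexual dimorphism depends largely on the pituitary: growth hormone is released in pulses in males and more evenly in females, and hepatocytes read the pattern through the growth hormone receptor and STAT5B. Estrogens and androgens act both on the pituitary pattern and on hepatocytes.

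Esr1 (ENSMUSG00000019768, GRCm38 chr10:4611593-5005614, + strand) was measured first, as a check of the genotype labels. It had 74.7, 88.2 and 82.8 CPM, counts scaled to a common library total, in the FWT livers and 19.7, 13.9, 11.7, 9.67 and 10.7 CPM in the FKO livers. The groups did not overlap, and the log2 fold change, FKO minus FWT, was -2.64 with a standard error (SE) of 0.25 (edgeR quasi-likelihood F test, Benjamini-Hochberg adjusted p = 4.47e-06). The count is a sum over all exons, so it does not show the deleted exon by itself. Coding exon 3 of 8 spans chr10:4783857-4783973 on the + strand of GRCm38 and codes for the C-terminal zinc finger of the DNA binding domain. It is shown as the exon that the name exon 3 would mean if only coding exons were counted. The sources used here do not say how exons were numbered, so whether it is the deleted segment was not established. Capitals mark the 5 cysteine codons in the reading frame.
Esr1 coding exon 3: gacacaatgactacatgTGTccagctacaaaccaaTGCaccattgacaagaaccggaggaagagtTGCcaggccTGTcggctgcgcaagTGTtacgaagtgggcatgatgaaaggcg

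A pair of FKO libraries stood apart from the rest. In FKO1 and FKO2, genes with a low GC content were read at higher levels than genes with a high GC content. The median log2 difference from the FWT mean in the sixth of the genes with the lowest GC, minus that in the sixth with the highest, was 0.971 in FKO1 and 0.625 in FKO2. In FKO3 to FKO5 it lay between -0.0251 and 0.0177, and in the FWT livers between -0.00801 and 0.0062. The numbers that rose or fell over all genes and in each gene list were therefore also computed without these 2, a choice made after seeing the data. Counts of genes without overlap, of genes in a cluster, of genes alike in FWT and MWT livers and of genes shared with males were not. These rest on all 5 FKO mice.

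**Figure D1:**
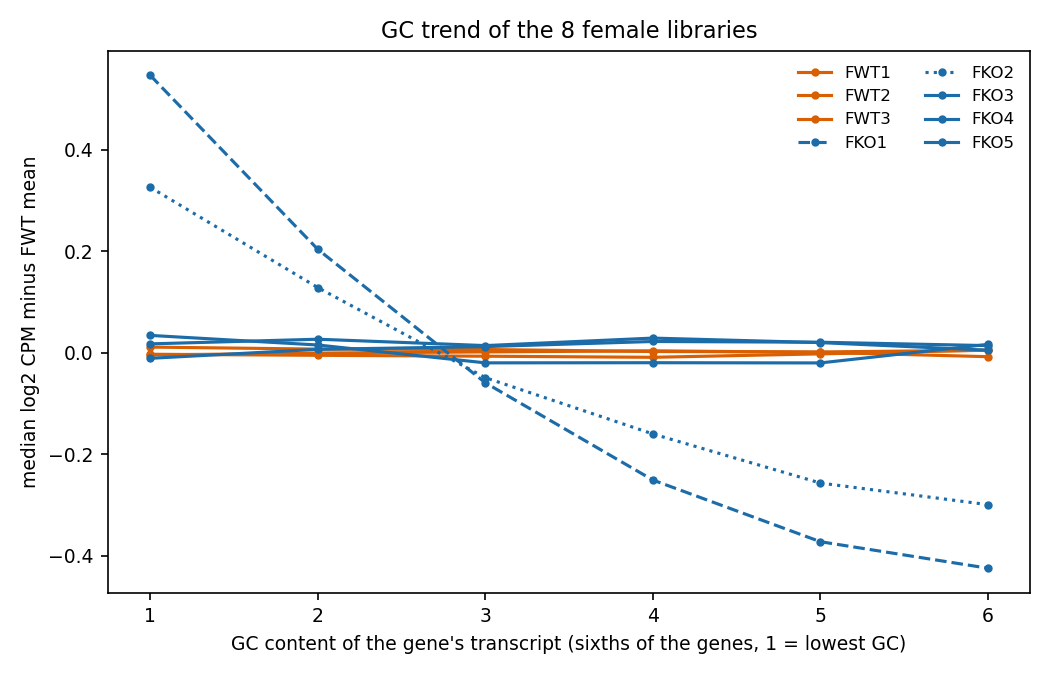
Median log2 CPM of each female library minus the mean of the FWT libraries (y axis, log2 units) in 6 equal classes of genes ordered by GC content of the transcript (x axis, 1 is the lowest). FKO1 (dashed) and FKO2 (dotted) fall from left to right by 0.971 and 0.625, and the other 6 lines stay close to 0.

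Of 17655 genes tested, 1008 passed the test (5.71%): 555 rose (3.14%) and 453 fell (2.57%) in FKO livers at an adjusted p under 0.05, the meaning of "rose" and "fell" throughout. Among them 125 rose (0.708% of the genes tested) and 87 fell (0.493%) by at least 1.5 on the log2 scale. With FKO1 and FKO2 left out, 442 genes rose (2.53% of 17504) and 340 fell (1.94%). With the GC trend of each library removed 696 rose (3.94%) and 517 fell (2.93%), and with GC and length trends removed 495 rose (2.8%) and 585 fell (3.31%). DESeq2's Wald test called 852 rises (4.97% of 17134) and 670 falls (3.91%). The FKO mice all lay above the FWT mice for 1418 genes (8.03%) and all below them for 1343 (7.61%). A core of 147 rises and 131 falls was past the test in the main analysis and in each of the 18 other analyses that tested the gene. Those analyses include each female mouse left out in turn. An analysis that filtered a gene out or gave it no adjusted p was not counted against it. The same holds wherever a gene is said to be past the test in every analysis. Of the changes of at least 1.5, 77 rises and 64 falls belonged to this core. The median log2 fold change over all genes tested lay between -0.02 and 0.02 in each analysis. The samples are whole liver, so that fewer cells of a type and less RNA per cell cannot be told apart for any gene.

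**Figure D2:**
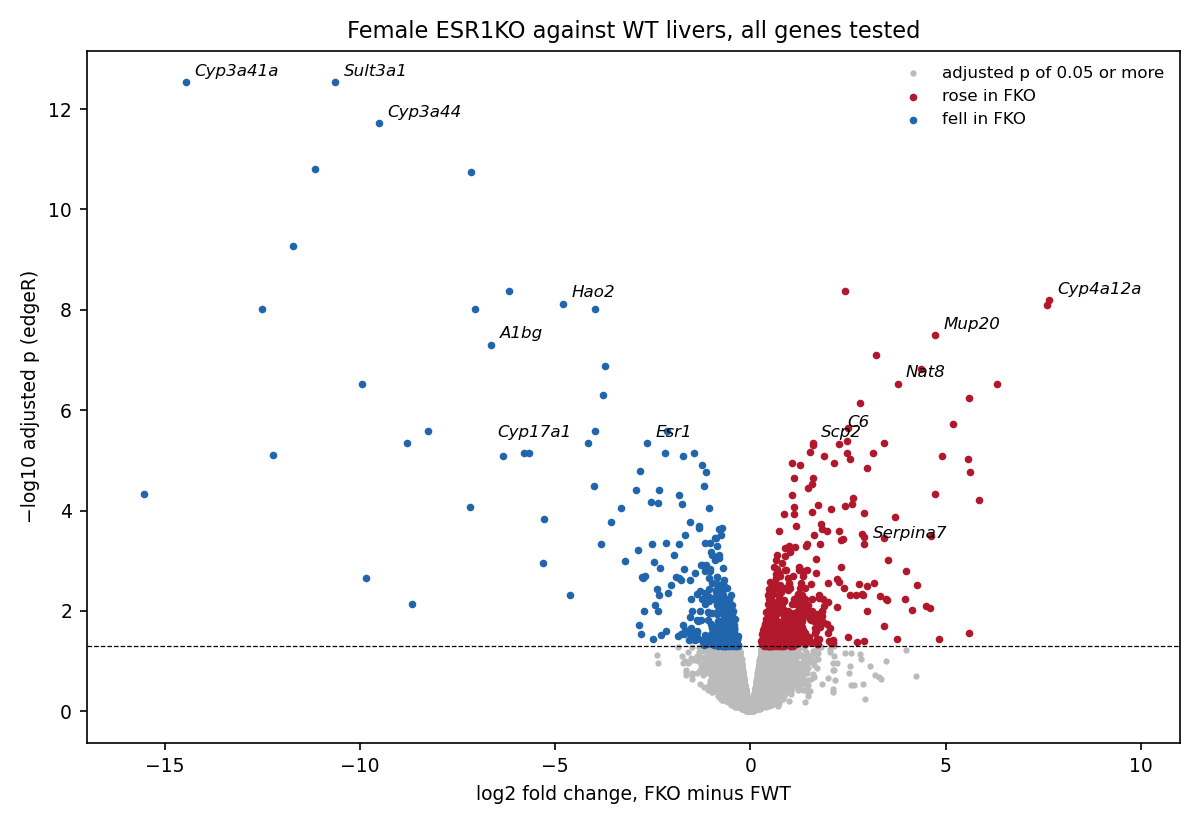
Each point is 1 of the 17655 genes tested, with the log2 fold change FKO minus FWT on the x axis and the -log10 of the adjusted p on the y axis; the dashed line is an adjusted p of 0.05. Red points (555) rose and blue points (453) fell, and the 4 falls farthest from 0 are of genes with 0 to 2 counts in FKO livers, whose fitted fold change is no measure of size.

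The largest rises in FKO livers, among genes whose log2 CPM averaged 1 or more over the female mice, belonged to an arachidonic acid and fatty acid hydroxylase pair of the Cyp4a family and to the major urinary proteins (MUPs), small pheromone carriers that the liver secretes. Cyp4a12a had 0.378, 1.2 and 0.115 CPM in FWT and 86.2, 99.5, 131, 107 and 130 CPM in FKO livers, a log2 fold change of 7.64 (SE 0.42, adjusted p = 6.48e-09). Its neighbor Cyp4a12b went from 0.0688, 0.161 and 0.0229 CPM to 9.53, 14.2, 16.7, 16.1 and 25.4 CPM (7.59, SE 0.43). The FWT livers together gave 79 counts of Cyp4a12a and 12 of Cyp4a12b. Every FKO liver lay above the FWT range for both genes, as the rule for naming them required. In males Cyp4a12a had 146 ± 19.6 CPM (SD, n = 3) in MWT and 143 ± 21.6 CPM (n = 4) in MKO livers. The other 4 genes tested of the Cyp4a cluster on chromosome 4, among them the PPARA targets Cyp4a10 (log2 fold change -0.39, adjusted p = 0.737) and Cyp4a14 (-0.42, adjusted p = 0.796), did not pass the test.

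Of 20 Mup genes tested, 8 rose (40%) and 1 fell (5%), beside 3.14% and 2.57% of all genes tested. These counts did not change without FKO1 and FKO2, and the 8 rises were past the test in every analysis. The median log2 fold change of the family was 0.74, and 0.57 without FKO1 and FKO2. All the Mup genes tested had a GC content below the median of all genes. With GC and length trends removed the median was 0.43, and 8 rose and 3 fell. Mup20, the male pheromone darcin, had 21.9, 17.5 and 16.6 CPM in FWT and 695, 550, 322, 506 and 407 CPM in FKO livers (4.73, SE 0.30, adjusted p = 3.22e-08). Mup7 went from 2.39, 4.98 and 6.46 CPM to 333, 107, 103, 147 and 151 CPM (5.20, SE 0.45). The highest value of Mup7 was that of FKO1, and without FKO1 and FKO2 its log2 fold change was 4.87. Mup14 (6.32), Mup21 (4.37), Mup1 (3.70), Mup12 (2.55), Mup6 (1.75) and Mup3 (1.27) also rose. Mup3 was read at 2263, 3804 and 3733 CPM in FWT and between 5784 and 12027 CPM in FKO livers. Mup18 fell by 2.45 on the log2 scale (adjusted p = 0.0077), from 18.6, 9.54 and 21.9 CPM to 3.30, 3.34, 1.36, 5.02 and 2.26 CPM, and was the only Mup gene that fell by this test. Along chromosome 4 (GRCm38 chr4:59964294-62150863) the last 3 Mup genes, Mup20, Mup3 and Mup21, all rose, whereas the 5 genes from Mup15 to Mup19 before them had log2 fold changes between -2.45 and -0.39. Many Mup genes are near-identical copies, so reads can be shared between those copies and the split among them is uncertain. Which members this affects was not tested.

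**Figure D3:**
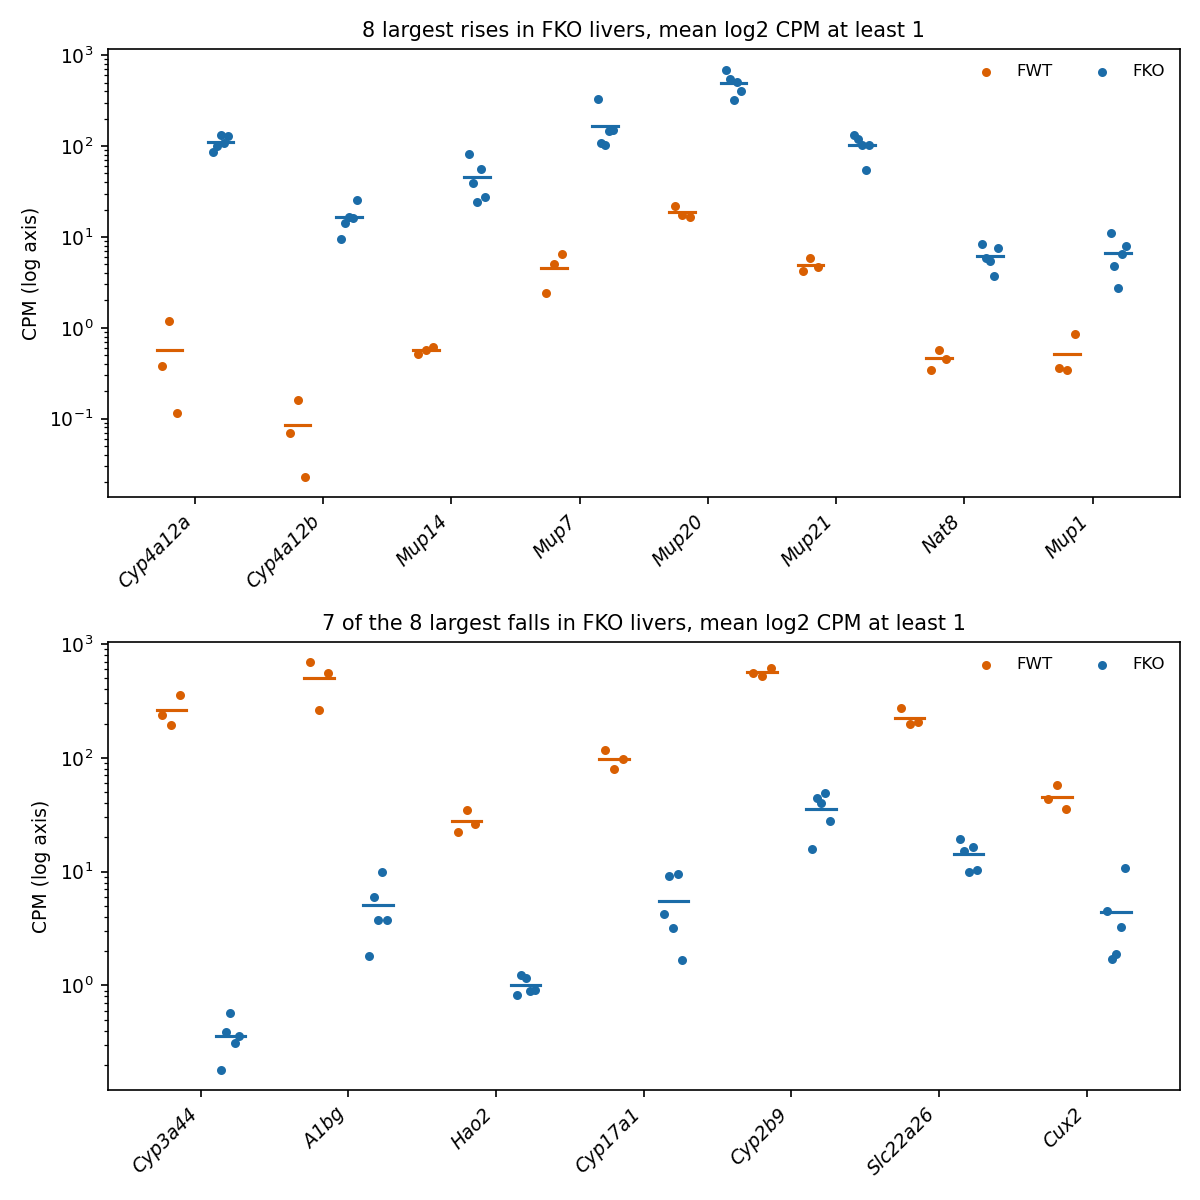
CPM on a log axis for the 8 largest rises (top) and 7 of the 8 largest falls (bottom) among genes whose log2 CPM averaged 1 or more; each point is 1 mouse, orange for FWT (n = 3) and blue for FKO (n = 5), and bars are group means. The groups do not overlap for any of these genes, which was a condition for showing them.

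The largest falls were those of cytochrome P450 (CYP) enzymes, which oxidise steroids and foreign compounds, and of sulfotransferases. Of 59 CYP genes tested, nearly all of the Cyp2, Cyp3 and Cyp4 families, 15 fell and 6 rose, or 13 and 5 without FKO1 and FKO2, and 12 falls and 4 rises were past the test in every analysis. The median log2 fold change of the list was -0.15. With all mice 25.4% of the list fell and 10.2% rose, beside 2.57% and 3.14% of all genes tested. Cyp3a16 had 158, 48.1 and 164 CPM in FWT livers (18403 counts) and no count in any FKO liver, which makes it at least 9858-fold higher in FWT when 3 counts over the FKO group are taken as the limit. Cyp3a41a had 222, 204 and 321 CPM in FWT livers (35726 counts) against 2 counts in all FKO livers, and Cyp3a41b had 5681 counts in FWT against 1 count in FKO livers. Cyp3a44 fell from 236, 193 and 360 CPM to 0.182, 0.386, 0.573, 0.31 and 0.362 CPM (log2 fold change -9.51, SE 0.29, adjusted p = 1.9e-12). Limits from a count of 0 cover counting error only.

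These 4 genes lie side by side. Of the 10 Cyp3a genes tested on chromosome 5, the 5 that fell, Cyp3a16, Cyp3a41b, the pseudogene Cyp3a63-ps, Cyp3a41a and Cyp3a44, occupy consecutive places from 145436309 to 145805874 on GRCm38, all on the - strand. The next gene on this strand, Cyp3a11, a main hepatic drug-metabolising enzyme that starts at 145854426, had 2222, 2390 and 1657 CPM in FWT and 4930, 4336, 2285, 3352 and 2453 CPM in FKO livers (0.73, adjusted p = 0.107). The groups overlapped for Cyp3a11. Cyp3a57 on the other side (-0.34, adjusted p = 0.541), and Cyp3a25, Cyp3a59 and the distant Cyp3a13 did not pass the test. The positional order was looked at after the values were seen. To show how close the members are, the RefSeq promoters of Cyp3a44 (GRCm38.p6, chr5:145805825-145806124, - strand) and Cyp3a41a (chr5:145720087-145720386, - strand) are printed from 250 bases before the start to 50 after it. Capitals in Cyp3a44 mark the 23 positions that differ from Cyp3a41a when the sequences are set against each other without gaps. In the same comparison Cyp3a41a and Cyp3a41b shared 292 of 300 bases (97.3%) and Cyp3a41a and Cyp3a44 shared 277 (92.3%), so counts of single members are uncertain where the counting could split reads.
Cyp3a44: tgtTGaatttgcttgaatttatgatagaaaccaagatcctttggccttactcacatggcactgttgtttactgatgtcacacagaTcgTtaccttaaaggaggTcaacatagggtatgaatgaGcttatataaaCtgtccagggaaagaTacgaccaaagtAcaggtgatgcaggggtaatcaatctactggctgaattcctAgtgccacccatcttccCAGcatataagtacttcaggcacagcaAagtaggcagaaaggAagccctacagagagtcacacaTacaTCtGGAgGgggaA
Cyp3a41a: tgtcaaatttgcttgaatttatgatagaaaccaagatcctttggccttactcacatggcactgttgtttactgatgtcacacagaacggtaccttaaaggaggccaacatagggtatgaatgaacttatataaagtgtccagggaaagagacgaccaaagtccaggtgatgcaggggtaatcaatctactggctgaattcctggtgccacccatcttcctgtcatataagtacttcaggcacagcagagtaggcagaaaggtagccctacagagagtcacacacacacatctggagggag

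The Cyp2b genes tested fell, and the Cyp2c cluster held genes of both directions. All 4 genes tested of the Cyp2b cluster on chromosome 7 fell: Cyp2b13 (-11.15), the pseudogene Cyp2b27-ps (-5.31), Cyp2b9 (-4.00) and Cyp2b10 (-2.36). Cyp2b10, the standard target of the receptor CAR, had 8.75, 10.9 and 12.4 CPM in FWT and 1.43, 2.84, 1.36, 2.23 and 2.46 CPM in FKO livers (SE 0.29, adjusted p = 7.1e-05). Cyp2a4, a testosterone hydroxylase, fell from 899.7, 1271 and 986.2 CPM to 70.7, 51.6, 98.6, 259.3 and 84.6 CPM (-3.22, SE 0.50, adjusted p = 0.00103). FKO4 had the highest value of the FKO group and still lay well below the FWT range. In the Cyp2c cluster on chromosome 19, 4 genes fell (Cyp2c69, Cyp2c39, Cyp2c37 and Cyp2c38) and 4 rose, the pseudogene Cyp2c53-ps among them, of 14 tested. The call for Cyp2c37 was lost without FWT1, FWT2, FWT3, FKO2 or FKO4 (adjusted p up to 0.15). Cyp2c39, a retinoic acid hydroxylase, went from 11.6, 9.04 and 9.83 CPM to 3.12, 3.56, 2.76, 3.80 and 2.25 CPM (-1.72, SE 0.17), while Cyp2c55 went from 1.77, 3.92 and 2.34 CPM to 9.78, 12.5, 11.4, 9.11 and 8.96 CPM (1.96, SE 0.27). Cyp2d9, a testosterone 16-alpha hydroxylase, had 55.9, 117.9 and 97.3 CPM in FWT and 506.6, 545.4, 1032, 742.6 and 1182 CPM in FKO livers (3.15, SE 0.31, adjusted p = 7.15e-06). The ethanol oxidising Cyp2e1 did not pass the test (-0.54).

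Sulfotransferases, which attach sulfate to hydroxysteroids, bile acids and amines, were the list with the largest share of falls: 9 of 14 genes tested fell and 1 rose, with a median log2 fold change of -1.21, and the counts did not change without FKO1 and FKO2. DESeq2's Wald test gave 8 falls and 1 rise. By edgeR 64.3% of the list fell and 7.14% rose, beside 2.57% and 3.14% of all genes tested. Sult2a1, which sulfates hydroxysteroids and bile acids, had 11.6, 6.34 and 19.4 CPM in FWT livers (1792 counts) and 0 counts in FKO livers, at least 960-fold higher in FWT. Sult2a2 had 3383 counts in FWT and 1 in FKO livers. Sult2a5 had 325 counts in FWT and 0 in FKO livers, at least 174-fold higher in FWT, a fall that DESeq2's test did not call. Sult3a1, whose family sulfates amines, went from 119, 80.8 and 120 CPM to 0.0227, 0.0827, 0.0261, 0.165 and 0.0302 CPM (-10.63, SE 0.29, adjusted p = 2.93e-13), and its neighbor Sult3a2 fell with it. FKO livers thus held almost no counts of these 5 genes, whereas the remaining members changed by less. Sult5a1 fell from 31, 39 and 57.6 CPM to 6.66, 6.04, 7.30, 18.5 and 9.13 CPM (-2.15, SE 0.31, adjusted p = 0.000448), and Papss2, which makes the sulfate donor PAPS, from 384, 399 and 509 CPM to 124, 174, 176, 176 and 147 CPM (-1.44, SE 0.14, adjusted p = 7.05e-06). Sult2a8 rose by 0.81 (adjusted p = 0.0239), a call lost without FWT1 (adjusted p 0.102) or FWT2 (0.102). In the Sult2a cluster on chromosome 7 the first 3 genes tested, Sult2a5, Sult2a2 and Sult2a1, fell, while Sult2a8 and Sult2a7 further along had log2 fold changes of 0.81 and 0.42.

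Other large falls came from enzymes and carriers of diverse roles. A1bg, a plasma glycoprotein, had 688, 261 and 560 CPM in FWT and 1.80, 5.96, 3.75, 9.94 and 3.77 CPM in FKO livers (-6.64, SE 0.44, adjusted p = 4.96e-08). Hao2, a peroxisomal hydroxy acid oxidase, fell from 22.1, 34.6 and 26.4 CPM to between 0.819 and 1.24 CPM (-4.79, SE 0.27). Slc22a26, an organic anion transporter, fell from 272, 198 and 207 CPM to 19.2, 15.2, 9.85, 16.6 and 10.4 CPM (-3.99, SE 0.23, adjusted p = 9.77e-09). For each of these genes every FKO mouse lay below every FWT mouse, which was a condition for naming them. Slc22a27, next to Slc22a26 on chromosome 19, fell as well (-2.82, SE 0.30), but the following gene Slc22a28 rose, from 2.13, 3.14 and 2.45 CPM to 32.7, 22.2, 22.6, 20.2 and 21.3 CPM (3.21, SE 0.22, adjusted p = 7.81e-08). These 3 transporter genes on the - strand thus hold both directions within chr19:7781041-8131982.

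Promoters of the 16 genes with the largest changes were searched on both strands for the consensus estrogen response element (GGTCA and TGACC with 3 bases between them, a palindrome) and the STAT5 type element TTCNNNGAA, which is also palindromic. RefSeq promoter entries were found for 10 of the 16 genes. None of their 12 entries held the estrogen response element, which occurred in 23 of 32851 promoters of the same length (0.0700%). The STAT5 type element occurred in 2 of the 12 entries and in 2726 of all promoters (8.30%). These matches are a description of a window of 300 bases and say nothing about sites elsewhere. The 2 promoters with a match are printed with it in capitals. That of A1bg (GRCm38.p6, chr15:60921221-60921520, - strand) holds it 84 bases before the start, and that of Slc22a26 (chr19:7802618-7802917, - strand) 141 bases before it.
A1bg: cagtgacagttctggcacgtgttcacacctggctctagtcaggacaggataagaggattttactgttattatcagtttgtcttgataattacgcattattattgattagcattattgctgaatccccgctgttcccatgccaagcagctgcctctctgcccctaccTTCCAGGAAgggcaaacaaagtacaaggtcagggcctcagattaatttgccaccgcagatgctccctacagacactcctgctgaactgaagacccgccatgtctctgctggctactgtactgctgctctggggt
Slc22a26: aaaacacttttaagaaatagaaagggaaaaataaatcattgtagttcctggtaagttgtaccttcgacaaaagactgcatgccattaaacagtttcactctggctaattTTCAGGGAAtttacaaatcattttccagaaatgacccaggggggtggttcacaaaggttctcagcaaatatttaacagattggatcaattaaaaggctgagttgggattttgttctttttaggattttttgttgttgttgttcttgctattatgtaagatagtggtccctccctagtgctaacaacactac

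Genes of steroid synthesis and inactivation moved in both directions. Of 25 genes tested 8 rose and 2 fell (7 and 3 without FKO1 and FKO2), with a median of 0.28 that was 0.10 without those libraries. With all mice 32% of the list rose and 8% fell, beside 3.14% and 2.57% of all genes tested. Cyp17a1, the 17-alpha hydroxylase and lyase of steroid synthesis, had 116, 79.0 and 97.9 CPM in FWT and 4.28, 9.15, 3.18, 9.53 and 1.68 CPM in FKO livers (-4.15, SE 0.39, adjusted p = 4.47e-06). Hsd3b1 was read at 1.27, 1.06 and 0.665 CPM in FWT livers and gave 4 counts in all FKO livers. Both of these falls were past the test in every analysis. Among the rises, the steroid 5-alpha reductase Srd5a1 went from 36.5, 36.1 and 38.6 CPM to 52.2, 62.0, 69.6, 78.0 and 76.1 CPM (0.87, SE 0.17, adjusted p = 0.00623). Akr1c19, an aldo-keto reductase, rose by 0.99 (SE 0.17, adjusted p = 0.00277). Akr1c12, Akr1c13, Hsd17b10, Hsd17b12 and Hsd17b13 rose by 0.39 to 0.60. Each of these 5 calls was lost without FWT2 and without FWT3, and some also without FWT1 (Akr1c12, Akr1c13, Hsd17b10 and Hsd17b13), FKO2 (Hsd17b10 and Hsd17b13) or FKO4 (Hsd17b10), with an adjusted p of up to 0.186.

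Conjugation enzymes and transporters outside sulfation moved in both directions. Of 20 UDP-glucuronosyltransferase list genes tested 5 rose (25%) and 2 fell (10%), beside 3.14% and 2.57% of all genes tested. Without FKO1 and FKO2 6 rose and 0 fell by edgeR. With all mice, 8 were higher and 4 lower at an unadjusted p under 0.05, and DESeq2 called 7 rises and 4 falls. Ugt2b38 rose from 2.12, 2.72 and 3.16 CPM to 28.6, 12.2, 14.7, 15.6 and 20.3 CPM (2.79, SE 0.49, adjusted p = 0.00287). Of 26 glutathione S-transferase list genes 3 rose (11.5%) and 1 fell (3.85%, near the share of all genes that fell). Gsta1 rose from 0.0344, 0.207 and 0.344 CPM to between 1.04 and 1.88 CPM (2.98, SE 0.53, adjusted p = 0.00319), and the microsomal Mgst1 from 1723, 1667 and 1892 CPM to 3970, 3493, 2586, 3260 and 2655 CPM (0.86, SE 0.15). Gstt3 fell from 71.8, 75.1 and 98.8 CPM to 17.7, 28.7, 22.8, 39.4 and 19.4 CPM (-1.68, SE 0.23, adjusted p = 0.00031). Among 23 flavin monooxygenases, aldehyde oxidases and aldehyde dehydrogenases 4 rose (17.4%) and 5 fell (21.7%). The rises included the adjacent aldehyde oxidases Aox3 (1.25, SE 0.20) and Aox1 (1.07, SE 0.21). The call for Aox1 was lost without FWT2 (adjusted p = 0.052). The efflux pump Abcg2 had 35.1, 33.9 and 40.8 CPM in FWT and 130, 114, 91.3, 95.6 and 96.9 CPM in FKO livers (1.53, SE 0.15, adjusted p = 6.8e-06), while the efflux pump Abcb1a fell by 1.19 on the log2 scale (SE 0.13, adjusted p = 3.2e-05). Nat8, an acetyltransferase of the mercapturate route, rose from 0.344, 0.576 and 0.458 CPM to 8.32, 5.93, 5.47, 3.70 and 7.62 CPM (3.77, SE 0.28).

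**Figure D4:**
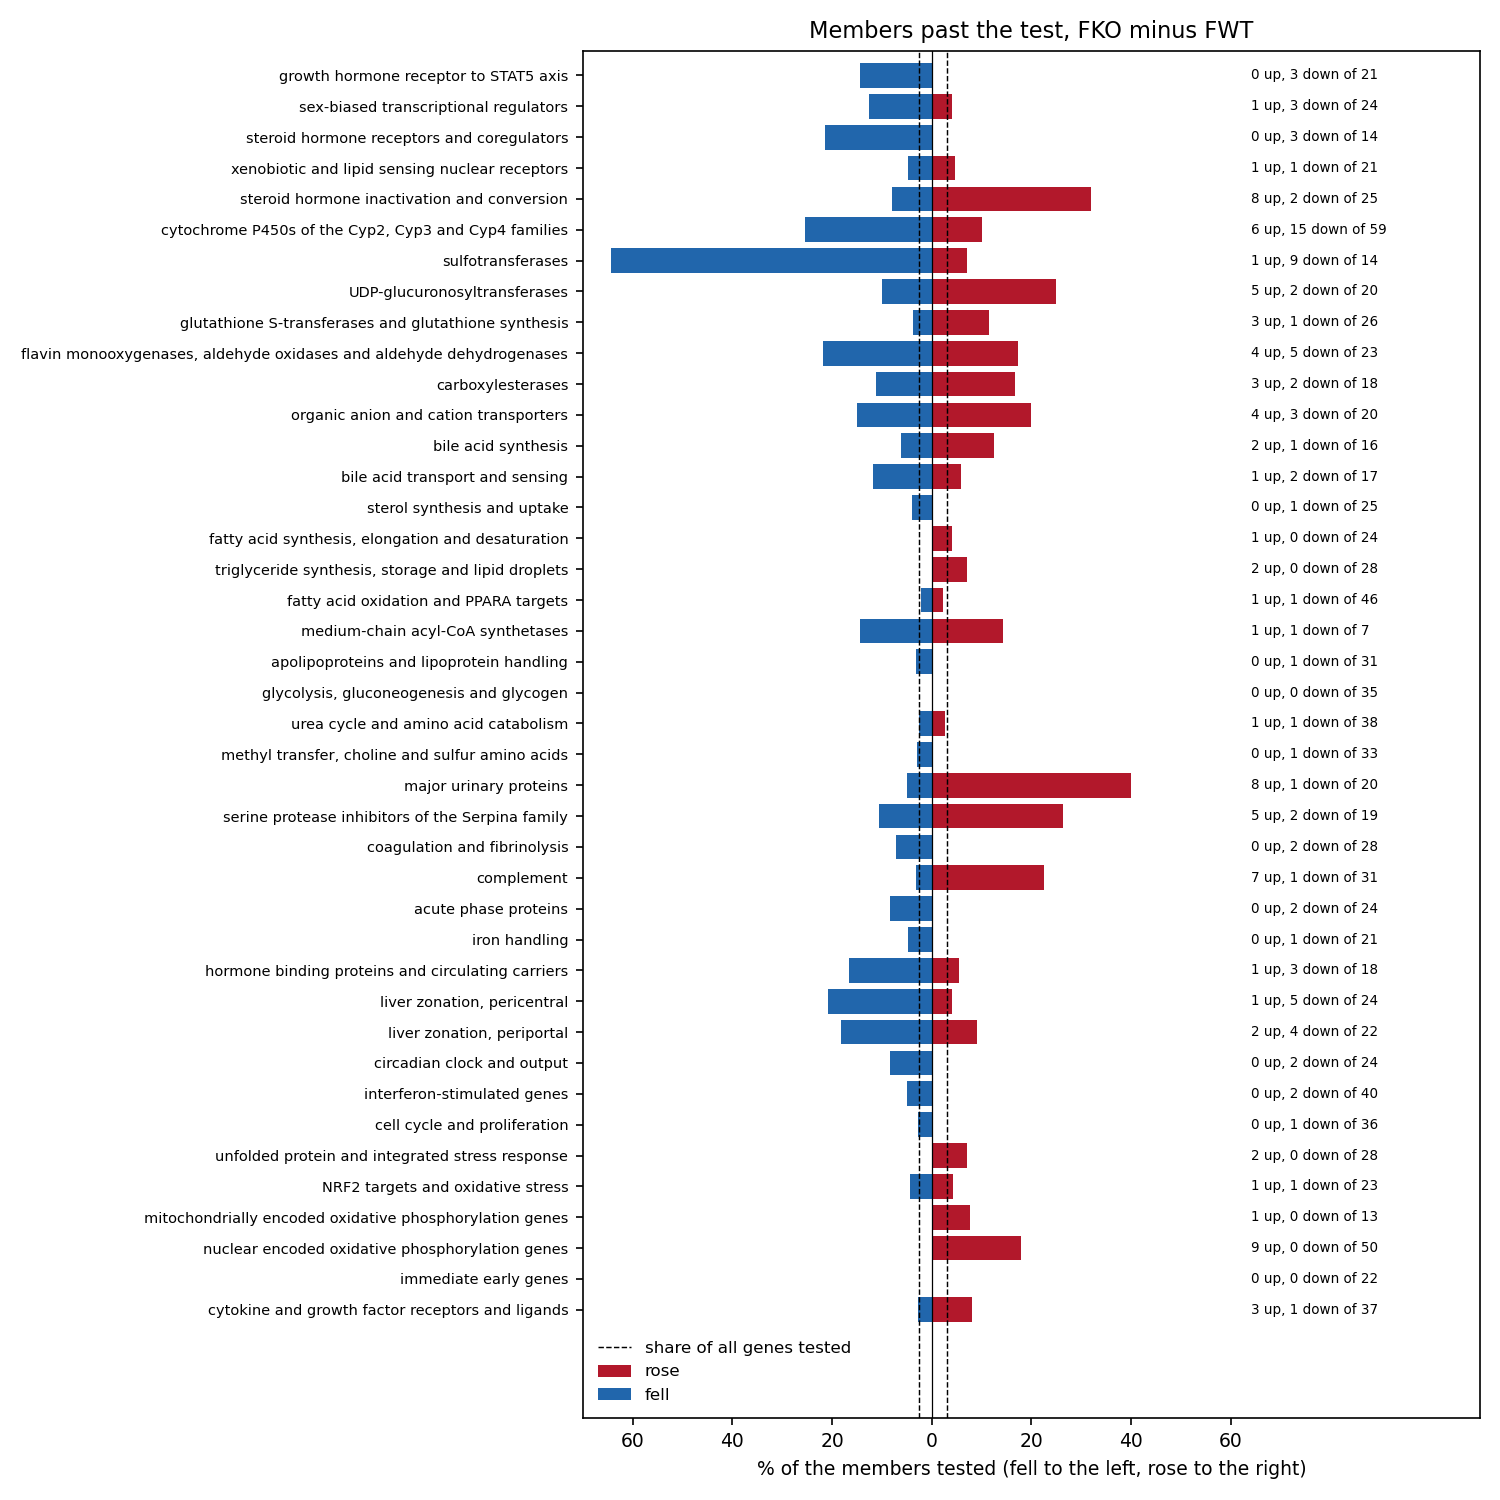
Share of the tested members of each gene list that rose (red, to the right) or fell (blue, to the left) in FKO livers, in percent, with counts printed beside the bars; dashed lines are the shares of all genes tested, 3.14% and 2.57%. Sulfotransferases have the longest bar to the left (9 of 14) and major urinary proteins the longest to the right (8 of 20).

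The RNA of growth hormone pathway genes was examined next. Of 21 genes tested from the growth hormone receptor to STAT5 and its targets, 0 rose and 3 fell (14.3% of the list, against 2.57% of all genes; at an unadjusted p under 0.05, 1 and 8; by DESeq2's Wald test, 1 and 4), with a median of -0.21. The growth hormone receptor Ghr had 547, 631 and 689 CPM in FWT and 833, 793, 682, 612 and 661 CPM in FKO livers (0.20, SE 0.12, adjusted p = 0.326). Stat5b had 68.9, 70.2 and 68.8 CPM in FWT and 38.3, 39.3, 55.1, 52.6 and 59.2 CPM in FKO livers (-0.50, SE 0.17, adjusted p = 0.0923). The groups overlapped for Ghr but not for Stat5b, although Stat5b missed the test. The lowest Stat5b values were those of FKO1 and FKO2, and without them the log2 fold change was -0.32 (adjusted p = 0.281). Stat5b was past the test without FKO5 (-0.58, adjusted p = 0.0482) and with the replicate block (-0.65, adjusted p = 0.036). The secreted growth factor Igf1 had 608, 705 and 652 CPM against 1154, 830, 607, 565 and 643 CPM (0.21, SE 0.19, adjusted p = 0.547), and without FKO1 and FKO2 its value turned to -0.12. The prolactin receptor Prlr fell from 364, 285 and 291 CPM to 235, 148, 147, 118 and 180 CPM (-0.92, SE 0.22, adjusted p = 0.0253). Its call was lost without any 1 of FWT1 (adjusted p = 0.114), FWT2 (0.055), FWT3 (0.0668) or FKO2 (0.0603). Stat5a and Igfbp2 were the other falls of this list, and both were lost when single mice were left out: Stat5a without FWT1, FWT2, FWT3 or FKO2 (adjusted p up to 0.16) and Igfbp2 without FWT1, FWT2 or FKO2 (up to 0.143). Without FKO1 and FKO2 together, 1 gene of the list fell.

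Of 24 transcriptional regulators with a known sex bias in mouse liver, 3 fell (12.5%) and 1 rose (4.17%), beside 2.57% and 3.14% of all genes tested. The 3 falls were past the test in every analysis. Cux2, a female-biased homeobox factor, fell from 43.1, 57.9 and 35.5 CPM to 4.53, 1.71, 1.88, 3.29 and 10.8 CPM (-3.32, SE 0.41, adjusted p = 8.78e-05). Trim24, a nuclear receptor cofactor, fell from 102, 86.3 and 80.0 CPM to 49.1, 31.4, 39.9, 26.2 and 34.2 CPM (-1.31, SE 0.18, adjusted p = 0.00022). Tox, an HMG-box factor, fell from 17.3, 12.1 and 12.2 CPM to 5.05, 6.40, 6.15, 5.48 and 6.47 CPM (-1.23, SE 0.20, adjusted p = 0.00121). Every FKO mouse lay below every FWT mouse for these 3 genes, which for Cux2 was a condition for naming it among the largest falls. The rise of Zfp809 (0.88, adjusted p = 0.0172) was lost without FWT1 (adjusted p = 0.0831) or FWT2 (0.0819). The repressor Bcl6 ranged from 6.34 to 10.7 CPM in FWT and from 4.61 to 35.5 CPM in FKO livers (adjusted p = 0.585), a spread too wide for a direction. Socs2 had 56.9, 24.4 and 15.4 CPM in FWT and between 13 and 34.3 CPM in FKO livers (adjusted p = 0.801).

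Plasma proteins other than MUPs also moved. Of 31 complement genes tested 7 rose and 1 fell by edgeR (7 and 0 without FKO1 and FKO2; with all mice, 12 and 3 at an unadjusted p under 0.05, and 9 and 2 by DESeq2), with a median of 0.07. With all mice 22.6% of the list rose and 3.23% fell by edgeR, beside 3.14% and 2.57% of all genes tested. The rises included components of the membrane attack complex, the pore that complement builds in target membranes. C6 had 18.6, 26.6 and 25.8 CPM in FWT and 112, 81.6, 117, 103 and 154 CPM in FKO livers (2.26, SE 0.21, adjusted p = 4.66e-06). C8a rose from 414.9, 372.4 and 370.4 CPM to between 721.6 and 1041 CPM (1.13, SE 0.14), and C9 from 177.8, 210.1 and 231.3 CPM to between 339.5 and 585.9 CPM (1.08, SE 0.18). C8b rose too (0.84, adjusted p = 0.0353), but not without FWT1, FWT2, FWT3 or FKO4 (adjusted p up to 0.133). C6, C8a and C9 were the complement genes past the test in every analysis.

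Of 19 genes of the Serpina family 5 rose (26.3%) and 2 fell (10.5%), beside 3.14% and 2.57% of all genes tested. Serpina7, which carries thyroid hormone in blood, rose from 15.7, 8.53 and 4.22 CPM to 80.4, 117, 59.6, 74.1 and 28.7 CPM (2.92, SE 0.42, adjusted p = 0.000458). Serpina6, which carries corticosteroids, fell from 418.1, 482.8 and 547.6 CPM to 191.5, 252.3, 274.3, 238.6 and 365.0 CPM (-0.87, SE 0.16, adjusted p = 0.00378). Serpina1e, a relative of alpha-1 antitrypsin, rose from 1203, 895.2 and 1279 CPM to 2500, 1348, 2120, 2549 and 3630 CPM (1.11, SE 0.28, adjusted p = 0.0295), but the call was lost without FWT1 (0.0864), FWT2 (0.135) or FWT3 (0.0809). Serpina1 genes are near-identical copies as well. Of 24 acute phase genes 0 rose and 2 fell (0 and 5 at an unadjusted p under 0.05 by edgeR; 0 and 4 by DESeq2), with Orm3, an orosomucoid, falling from 1.15, 4.40 and 8.18 CPM to between 0.372 and 0.796 CPM (-2.89, SE 0.43, adjusted p = 0.000623).

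Genes of bile acid and lipid metabolism were counted by list. Scp2, which carries sterols and cleaves branched-chain intermediates of bile acid synthesis in peroxisomes, rose from 1458, 1134 and 1164 CPM to 4149, 4035, 3566, 3640 and 3599 CPM (1.60, SE 0.15, adjusted p = 4.47e-06). Cyp39a1, an oxysterol hydroxylase of bile acid synthesis, fell from 38.2, 40.7 and 36.1 CPM to 24.3, 18.6, 12.2, 12.4 and 11.4 CPM (-1.28, SE 0.24, adjusted p = 0.00396). Of 16 bile acid synthesis genes 2 rose (12.5%) and 1 fell (6.25%), and without FKO1 and FKO2 4 rose and 2 fell. Of 17 genes of bile acid transport and sensing 1 rose, Slc10a2, and 2 fell, Slc51b and Abcg5. Of 7 genes tested in the list of medium-chain acyl-CoA synthetases 1 rose, Acsm3, and 1 fell, Acss3, which is a short-chain acyl-CoA synthetase. Without FKO1 and FKO2 1 gene of this list rose and 0 fell, and no member was past the test in every analysis. Fitm1, which shapes lipid droplets, rose from 3.72, 2.47 and 3.87 CPM to 12.8, 21.5, 17.5, 32.1 and 18.0 CPM (2.60, SE 0.32, adjusted p = 7.45e-05), and Elovl3, a fatty acid elongase, rose by 3.41 (SE 0.48). Of 28 genes of triglyceride synthesis and lipid droplets 2 rose (7.14%), Fitm1 and Hsd17b13. Otherwise 1 of 25 sterol synthesis and uptake genes fell, 1 of 24 fatty acid synthesis genes rose, and 1 of 46 genes of fatty acid oxidation rose and 1 fell, beside 3.14% of all genes tested that rose and 2.57% that fell. Of 35 genes of glycolysis, gluconeogenesis and glycogen metabolism 0 rose and 0 fell by edgeR (4 and 3 at an unadjusted p under 0.05; 0 and 1 by DESeq2).

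Zonation genes differ along the axis from portal to central vein. Of 24 pericentral genes 5 fell (20.8%, against 2.57% of all genes) and 1 rose (3 and 1 without FKO1 and FKO2, and 1 and 0 in a fit of only the females), of which no member was past the test in every analysis, with a median of -0.45 (-0.23 without the 2 libraries). The falls included the WNT pathway genes Notum (-0.91, adjusted p = 0.00553) and Lgr5 (-0.80, adjusted p = 0.0222), the latter lost without FWT1 (adjusted p = 0.0858) or FWT3 (0.135). Of 22 periportal genes 4 fell (18.2%) and 2 rose with and without FKO1 and FKO2, and 3 fell and 1 rose in a fit of only the females. The polymeric immunoglobulin receptor Pigr fell from 1047, 1326 and 1320 CPM to 543.8, 585.3, 822.4, 654.8 and 776.7 CPM (-0.86, SE 0.15, adjusted p = 0.00294). Cdh1, which encodes E-cadherin, fell from 45.8, 51.2 and 49.6 CPM to 21.6, 26.9, 35.7, 24.5 and 27.1 CPM (-0.85, SE 0.14, adjusted p = 0.00208).

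Genes of oxidative phosphorylation were compared with and without the libraries that stood apart. Over all genes tested 3.14% rose and 2.57% fell by edgeR, and 4.97% and 3.91% by DESeq2. Without FKO1 and FKO2 these shares were 2.53% and 1.94% by edgeR. With the GC trend removed they were 3.94% and 2.93%, and with the GC and length trends removed 2.8% and 3.31%. Of 50 nuclear genes for oxidative phosphorylation subunits 9 rose (18.0%) and 0 fell. At an unadjusted p under 0.05 by edgeR 30 were higher and 0 lower, and DESeq2 called 17 rises and 0 falls. Without FKO1 and FKO2 4 rose, and only Cox7a2 (0.73, adjusted p = 0.00582) was past the test in every analysis. The median of the list was 0.24, and 0.19 without these libraries. With the GC trend of each library removed 12 rose (median 0.29), and with the GC and length trends removed 7 rose (median 0.15). For the 13 mitochondrially encoded genes the median went from 0.51 with all mice to -0.06 without FKO1 and FKO2, and the single rise, mt-Co3 (0.79, adjusted p = 0.0497), was lost, as it was without FWT1, FWT2, FWT3, FKO1 or FKO2 alone (adjusted p up to 0.183). With the GC trend removed the median of this list was 0.23 and 1 gene rose, and with the GC and length trends removed the median was -0.08 and 0 rose. Of 22 immediate early genes 0 rose and 0 fell by edgeR, with 0 at an unadjusted p under 0.05 and 0 by DESeq2. Among 36 cell cycle genes only Ccnd1, cyclin D1, passed the test, falling from 169, 156 and 130 CPM to between 48.1 and 89.1 CPM (-1.37, adjusted p = 0.0249). This call was lost without FWT1, FWT2, FWT3 or FKO2 (adjusted p up to 0.0911) and without FKO1 and FKO2 together (adjusted p = 0.109).

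Single members of other lists stood out. Of 28 genes of the unfolded protein and integrated stress response 2 rose, and Asns, asparagine synthetase, went from 0.843, 0.991 and 0.412 CPM to 2.07, 2.56, 3.31, 3 and 1.89 CPM (1.76, SE 0.34, adjusted p = 0.00546). Of 23 NRF2 targets and oxidative stress genes 1 rose and 1 fell, and the fall, that of the aldose reductase-like Akr1b7, was from 1.69, 1.18 and 1.51 CPM to 0.296, 0.414, 0.365, 0.289 and 0.257 CPM (-2.19, SE 0.21, adjusted p = 7.05e-06). Both genes were past the test in every analysis. Of 40 interferon-stimulated genes 2 fell (5%), Gbp3 and Oasl2, and 0 rose. Of this list 12 were lower and 0 higher at an unadjusted p under 0.05 by edgeR, DESeq2 called 2 falls and 0 rises, 4 fell with the GC trend removed, and the median was -0.25. Of 24 clock genes 2 fell (8.33%), Per3 and Por, and of 28 coagulation genes 2 fell (7.14%), F7 and Plg. None of these 6 falls was past the test in every analysis. Over all genes tested 3.14% rose and 2.57% fell. Of 38 genes of the urea cycle and amino acid catabolism 1 rose, Csad, and 1 fell, Hpd (2.63% each). At an unadjusted p under 0.05 4 of this list were higher and 13 lower, DESeq2 called 2 rises and 4 falls, and 4 fell with the GC and length trends removed. Of 20 tested genes that the study placed near its regions of sex-dependent methylation, 4 rose and 9 fell. The study chose these regions for sex bias in earlier data.

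Genes that do not differ between FWT and MWT livers were looked at separately, because the largest changes above include many genes known for sex bias in liver, the Mup and Cyp3a genes among them. A gene was taken as similar between the WT sexes when its FWT minus MWT log2 difference lay within 0.5 of 0 with an adjusted p of 0.05 or more, which held for 14703 of the genes tested. Of these 255 rose (1.73%) and 189 fell (1.29%) in FKO livers, but only 13 and 5 did so by at least 1.5 on the log2 scale. Both contrasts use the same 3 FWT mice, so the counts describe these mice and support no independent statement. In the male contrast, MKO minus MWT, 9 of the 255 rises also rose and 7 of the 189 falls also fell, none was past that test in the opposite direction (edgeR), and 5 of these genes had a female effect that differed from the male effect by the interaction test, against 1.94% of all genes tested.

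The 6 largest rises of this kind were Snora23, Snora21, Lgals1, Dsg1c, Pparg and Slc10a2, and the 6 largest falls were Enho, Map3k13, Slc3a1, Ang, Fam81a and Dio1. Lgals1, a galactoside binding lectin, had 7.77, 8.23 and 7.61 CPM in FWT and 20.8, 28.7, 17.9, 22.6 and 17.0 CPM in FKO livers (1.44, SE 0.21, adjusted p = 0.000458). In males it had 9.56 ± 2.56 CPM (n = 3) in MWT and 28.5 ± 7.20 CPM (n = 4) in MKO livers, a log2 fold change of 1.58 (adjusted p = 0.00111). Lgals1 thus rose in knockout livers of both sexes. Pparg, the nuclear receptor that drives fat storage, rose from 8.02, 6.34 and 6.23 CPM to 10.6, 13.8, 16.3, 29.2 and 15.7 CPM (1.32, SE 0.27, adjusted p = 0.00779), and in males from 8.64 ± 1.88 CPM in MWT to 23.7 ± 4.64 CPM in MKO livers (1.46, adjusted p = 0.011). The female call for Pparg was lost without FWT3 (adjusted p = 0.0521). Dsg1c, a desmosomal cadherin, rose by 1.38 (SE 0.27, adjusted p = 0.00622).

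Enho, which encodes the secreted peptide adropin, fell from 31.7, 34.0 and 32.3 CPM to 11.6, 9.02, 7.56, 8.00 and 9.63 CPM (-1.83, SE 0.26, adjusted p = 0.000458), and in males the values were 32.4 ± 6.36 CPM in MWT and 14.9 ± 7.24 CPM in MKO livers (-1.12, adjusted p = 0.0596). Slc3a1, a subunit of a cystine transporter, fell from 37.2, 40.9 and 40.1 CPM to 20.6, 15.6, 18.0, 21.7 and 18.5 CPM (-1.06, SE 0.13, adjusted p = 8.86e-05), and in males from 51.3 ± 10.7 to 26.4 ± 2.77 CPM (-0.95, adjusted p = 0.00189). Dio1, the deiodinase that activates thyroid hormone, fell from 240, 196 and 275 CPM to 93.3, 96.3, 108, 170 and 120 CPM (-1.01, SE 0.19, adjusted p = 0.00548). The stress kinase gene Map3k13 (-1.26), the secreted ribonuclease gene Ang (-1.03) and Fam81a (-1.03) fell with groups that did not overlap, as the rule for naming them required, and Fam81a also fell in males (-0.97, adjusted p = 0.0271). The small nucleolar RNA Snora23 rose from 5.99, 6.5 and 10.3 CPM to 64, 32.3, 20.8, 41.4 and 16.8 CPM (2.21, SE 0.38, adjusted p = 0.00235), with its highest value in FKO1, and rose by 1.80 without FKO1 and FKO2 and by 1.34 with the GC and length trends removed. Snora21 rose by 1.78 (adjusted p = 0.0166) and by 0.89 with these trends removed, and its call was lost without FWT1 or FWT2 (adjusted p up to 0.0928). The bile acid transporter Slc10a2 rose by 1.31 (adjusted p = 0.0257) but not without FWT1, FWT2, FWT3 or FKO2 (adjusted p up to 0.122) or without FKO1 and FKO2 together (adjusted p = 0.0871). None of the 12 genes passed the interaction test (edgeR), so no difference between the female and the male effect was shown for them.

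**Figure D5:**
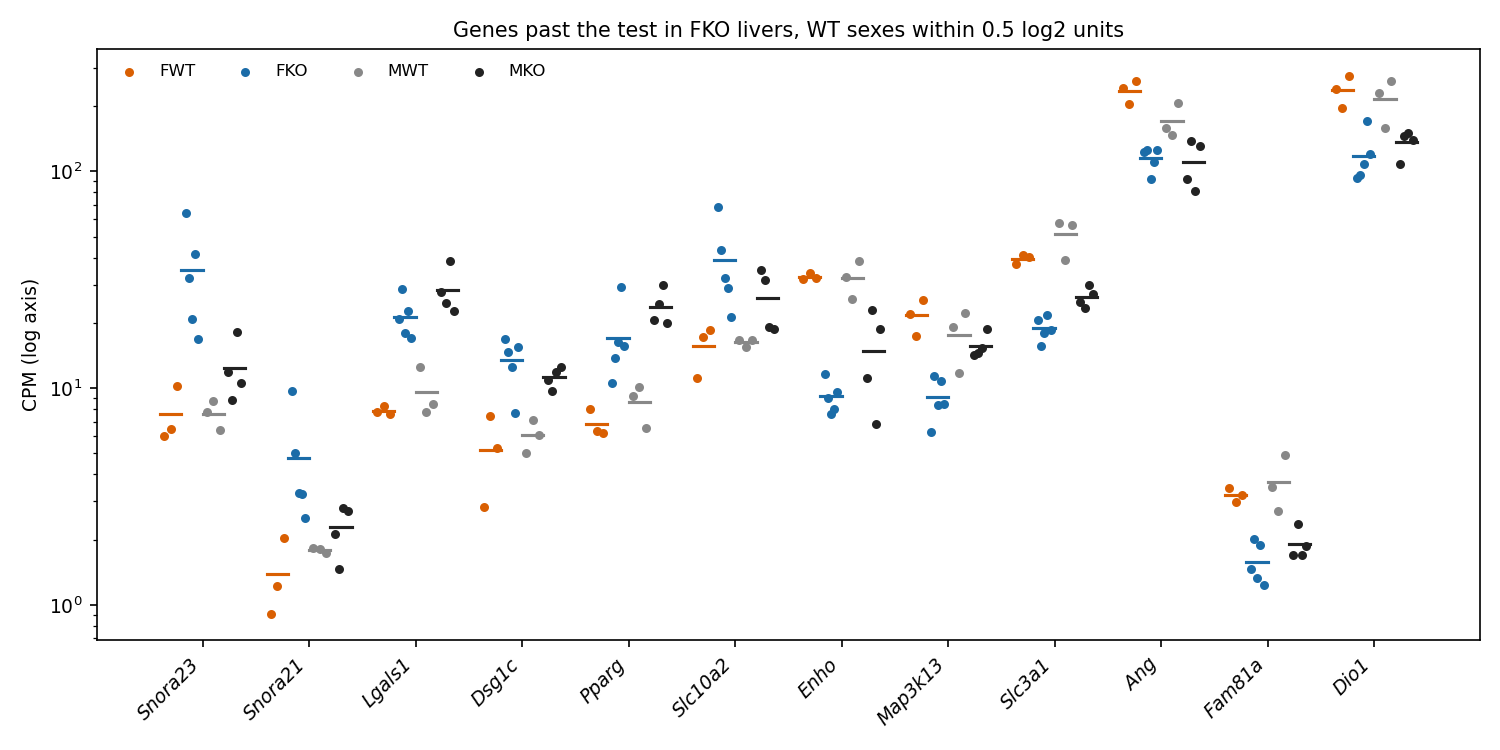
CPM on a log axis of the 6 largest rises and 6 largest falls in FKO livers among genes whose WT sexes lay within 0.5 log2 units; each point is 1 mouse and bars are group means for FWT (orange, n = 3), FKO (blue, n = 5), MWT (gray, n = 3) and MKO (black, n = 4). Lgals1 and Slc3a1 show separated WT and ESR1KO mice in both sexes.

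Across all genes, 250 passed the test in the male contrast (1.42%), and the female and male contrasts share no mice. Past the test in both were 92 genes, 9.13% of the female list and 36.8% of the male list. Of these, 41 moved in the same direction and 51 in opposite directions. C6, for example, had a log2 fold change of -1.22 in MKO livers (adjusted p = 0.00447) and Mup20 of -1.52 (adjusted p = 0.00424), while both rose in FKO livers. Serpina7 rose in both, from 20.5 ± 3.36 CPM in MWT to 99.7 ± 21.0 CPM in MKO livers (2.28, adjusted p = 0.00859). Sult5a1 fell in both (-1.85 in males, adjusted p = 0.00838).

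None of the 14 hepatocyte, 14 stellate cell, 16 endothelial, 16 Kupffer cell, 4 neutrophil or 6 pancreas, adipose and mesothelial markers tested passed the test by edgeR. At an unadjusted p under 0.05 the numbers higher and lower were 1 and 2, 0 and 1, 2 and 1, 2 and 0, 0 and 0, and 1 and 1 in the same order, and DESeq2 called 1 and 1, 0 and 0, 1 and 1, 0 and 0, 0 and 0, and 0 and 0. Without FKO1 and FKO2 2 stellate cell markers rose, Col3a1 and Vim, and 1 fell, Rgs5. In the same fit Krt8 and Krt18 of the pancreas, adipose and mesothelial list rose and Cela1 fell. Krt8 and Krt18 are keratins that hepatocytes also express. Summed CPM of the hepatocyte markers ranged from 134040 to 142486 in FWT and from 115223 to 137094 in FKO livers, and those of the Kupffer cell markers from 635 to 783 and from 607 to 787. The cholangiocyte sum did not overlap, with 38.2 to 38.7 CPM in FWT and 48.7 to 57.2 CPM in FKO livers. Of its 9 tested members only Spp1, osteopontin, rose (28.6, 28.5 and 29.3 CPM against 45.7, 40.7, 39.7, 44.4 and 47 CPM, adjusted p = 0.0272). This call was lost without FWT1, FWT2 or FWT3 (adjusted p up to 0.0978) and without FKO1 and FKO2 (adjusted p = 0.0579). Among the 11 erythroid and platelet markers Alas2, which starts heme synthesis and is also expressed in hepatocytes, rose from 13.7, 14.9 and 36.6 CPM to 117, 121, 123, 124 and 157 CPM (2.56, SE 0.26, adjusted p = 9.34e-06). The platelet factor gene Pf4 of the same list rose by 0.82 (adjusted p = 0.0273) but not without FWT2, FWT3 or FKO2 (adjusted p up to 0.137). The sum of the list overlapped between groups (86.9 to 557 and 361 to 488 CPM). Of 19 lymphoid markers, Gzmb, which encodes granzyme B, fell by 1.5 on the log2 scale (adjusted p = 0.0353), a call lost without FWT2, FWT3, FKO1, FKO2, FKO4 or FKO5 (adjusted p up to 0.194). Of the pancreas, adipose and mesothelial list, Cpa1, Prss1, Prss2, Amy2a1, Pnlip and Lep stood at 0 in all female livers. The part of other cell types in the results above was not tested.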

How the data were processed

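Liver RNA of 15 mice was depleted of ribosomal RNA and sequenced (paired-end, 1 lane), and libraries with few reads were sequenced again. Which libraries these were is not given in the sources used here. Per the labels and their processing notes, the authors trimmed reads with Trimmomatic 0.36, used STAR for alignment to GRCm38, and counted with HTSeq 0.6.0, while the study's methods give another HTSeq version. The deposited table holds raw counts per gene without normalization, for 55573 Ensembl genes. The annotation release, strand setting and treatment of reads with several matches are not given in the sources used here. Mice were grouped by labelled genotype and sex. Total counts were 42412591 to 56177913 in FWT and 36302090 to 65665473 in FKO livers. Replicates differed by a chi-square of at least 26.1 per gene, so no library was a repeat of another.

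Genes were kept by filterByExpr (17655), scaled by TMM and fitted with 1 mean per group over all 15 libraries by edgeR 4.0.16 (R 4.3.3) with a quasi-likelihood F test. P values were adjusted by Benjamini-Hochberg over all genes tested. CPM use the TMM factors. A group with 0 counts was given a limit of 3 counts over the group. On simulated data for FKO minus FWT (17372 genes), 43.3% of 1.5-fold, 91.0% of 2-fold and 100% of 4-fold changes were recovered, with 9 false calls. The changed genes had an average log2 CPM above 1 and no GC trend was simulated. The simulation therefore does not cover changes in genes with lower counts or the trend of FKO1 and FKO2. Alternatives were DESeq2 size factors, total counts, DESeq2 1.42.0, no filter, 1 CPM in 3 libraries, only the 8 females, a replicate block and each female mouse left out. Added after seeing the data were FKO1 and FKO2 left out and the GC trend, or GC and length trends, of each library removed. Named are Esr1, the 8 largest rises and 8 largest falls (mean log2 CPM of at least 1, no overlap), the same for 6 and 6 genes with similar WT sexes, the 6 most abundant genes past the test, 7 regulators and examples of 51 gene lists. Some genes covered by this rule are not reported here. Members of the Cyp2, Cyp3a, Cyp4a, Sult2a, Slc22a and Mup clusters, pseudogenes among them, are also named by position, which was chosen after their values were seen. The members and lists were chosen with earlier results of these data known.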

Additional observations from a re-analysis of the deposited data

Results flagged for a closer look

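For 17 named genes the effect of ESR1KO differed between females and males by the interaction test (edgeR, adjusted p under 0.05). They were searched among genes reported here for the size of their change, their abundance or their role as regulators. Examples of the gene lists were not searched for such differences here. Over all genes tested, 343 of 17655 (1.94%) passed this test. Most of the 17 were chosen for a large FKO minus FWT change, which is part of the same contrast. A large difference was therefore partly built in. The values given are log2 female minus male effects. Among the rises in FKO livers these were 7.67 for Cyp4a12a, 7.69 for Cyp4a12b, 8.64 for Mup14, 8.67 for Mup7, 6.26 for Mup20, 5.56 for Mup21, 7.18 for Mup1, 1.72 for Mup3 and 4.33 for Nat8. They were 1.74 for Scp2 and 2.75 for Serpina1e. Among the falls they were -9.87 for Cyp3a44, -8.97 for A1bg, -7.73 for Hao2, -4.11 for Cyp17a1, -13.92 for Cyp2b9 and -7.64 for Slc22a26. MWT livers had 0 counts of Cyp2b9, so its fitted value depends on the prior count and is no bound. The named Mup genes other than Mup3 fell in MKO livers, with log2 fold changes between -3.48 (Mup1) and -1.19 (Mup21), and Slc22a26 and Hao2 rose there, by 3.65 and 2.94.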

How the results depend on the processing

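Of 1008 genes past the test, 555 rises and 453 falls, DESeq2's Wald test gave 1522 (852 rises and 670 falls) and a fit of only the 8 females gave 457 (243 rises and 214 falls). Removing the GC and length trends of each library turned the split to 495 rises and 585 falls. With single mice left out the total ranged from 413 to 1538, rises from 213 to 845 and falls from 187 to 693. It was 436 without FWT1, 469 without FWT2, 413 without FWT3, 593 without FKO2 and 1538 without FKO5. Changes of at least 1.5 ranged from 169 to 237 in total. Leaving out 1 of 3 FWT mice leaves fewer samples, and the cause of the shift without FKO5 was not tested. Directions turned for Igf1 (-0.12 without FKO1 and FKO2, -0.039 with the GC trend removed), Bcl6 (-0.21 with the replicate block) and Socs2 (0.44 without FWT1, within a range of -0.596 to 0.44 over the mice left out), of which none passed the test in either form. Esr1 stayed between -2.94 and -2.50 in every analysis. FWT and FKO mice with the same replicate number had correlations of -0.195, 0.0858 and -0.0230 between their deviations from the group means. For different numbers these lay between -0.159 and 0.219. The values show no pairing by number, but so few mice cannot exclude it. With the replicate block 733 genes rose and 650 fell. The total, the rises and the falls stayed within 1.5 times their reported counts under the other alternatives. Of simulated 1.5-fold changes 43.3% were recovered, which limits what these group sizes can show of small changes.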

Other observations

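A pair of gene classes was noticed after the values were seen and is given as values only. Over all genes tested 3.14% rose and 2.57% fell by edgeR. Without FKO1 and FKO2 these shares were 2.53% and 1.94%, and with GC and length trends removed 2.8% and 3.31%. Of 92 ribosomal protein genes tested 42 rose by edgeR, with a median log2 fold change of 0.37. Without FKO1 and FKO2 30 rose (median 0.27), and with GC and length trends removed 31 rose (median 0.30). Their summed CPM lay between 9830 and 10909 in FWT livers and was 14833, 14477, 12436, 12135 and 12180 in FKO1 to FKO5, so all 5 FKO livers lay above the FWT range. Of 139 small nucleolar and small Cajal body RNA genes 43 rose by edgeR (median 0.81). Without FKO1 and FKO2 24 of 131 rose (median 0.55), and with GC and length trends removed 13 rose and 9 fell (median 0.02). Their summed CPM lay between 689 and 940 in FWT livers and was 2547, 1729, 1144, 1460 and 1117 in FKO1 to FKO5, highest in the libraries with the GC trend, whose part in the result was not tested.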
